A study of Mus musculus with 12 samples.

Results

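The macrophage polarization genes are 10 genes of the 21956 in the count table: Arg1, Mrc1 and Chil3, markers of alternative activation, Nos2, Cd86 and Cd80, markers of classical activation, and Ms4a7, Ly6c2, Vcan and Adgre1, genes of infiltrating monocytes and macrophages. They were taken by symbol, and each symbol matched 1 Ensembl gene. RNA was sequenced from mouse brain tissue in 4 groups of 3 mice, Sham-Fabp4fl_fl, Sham-Fabp4CKO, ICH-Fabp4fl_fl and ICH-Fabp4CKO. Intracerebral hemorrhage (ICH) was induced by an injection of collagenase into the right striatum, and tissue within 1 to 2 mm of the hematoma was taken 48 h later. Sham mice had the same surgery without collagenase, and the hour at which their tissue was taken is not given in the sources used here. All mice carry the floxed Fabp4 allele, which encodes a fatty acid-binding protein. Fabp4CKO mice also carry TMEM119-CreERT2, a Cre recombinase driven by a microglial promoter and switched on by tamoxifen, given for 7 days and ended 14 days before surgery. Fabp4fl_fl mice carry no Cre, and whether they received tamoxifen is not given in the sources used here. The design therefore targets Fabp4 in microglia and not in monocytes that enter the brain, and the tissue holds both along with all other cells of the region.

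Macrophages take up different programs according to the signals around them. Interferon and bacterial products favor classical activation, in which the nitric oxide synthase Nos2 converts arginine to nitric oxide and the costimulatory ligands Cd80 and Cd86 engage Cd28 and Ctla4 on T cells. Interleukin-4 and interleukin-13 favor alternative activation, in which arginase 1 (Arg1) converts the same arginine to ornithine, the mannose receptor Mrc1 takes up glycoproteins and the chitinase-like protein Chil3 is secreted. After a hemorrhage, blood monocytes that express Ly6c2 and Ccr2 enter the brain and become macrophages beside the resident microglia, and both cell types express Adgre1, which encodes F4/80. In bulk tissue, a change in the number of cells of a type and a change in RNA per cell cannot be told apart.

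Estimated counts per library summed to 15650813 to 22406216, and levels are given as CPM (counts scaled to 1000000 per library) after TMM normalization, with the standard deviation (SD) over 3 mice. Fabp4 was at or under 3 reads in all 6 sham libraries, so the deletion could be checked only after ICH. There the Fabp4 count was 46, 63 and 24 in the Fabp4fl_fl mice and 5, 3 and 10 in the Fabp4CKO mice. The groups did not overlap, as was so for 19.8% of all genes tested after ICH. The log2 fold change of Fabp4 was -2.94 ± 0.62 (SE), with an adjusted p of 0.295 in edgeR's quasi-likelihood test, and residual reads can come from cells without Cre. The reads came from whole tissue, so loss in microglia and a change in cell content cannot be told apart. Endothelial marker sums, given below, were also lower in these CKO mice without overlap, and their part in the Fabp4 count was not tested. ICH-Fabp4CKO mouse 1 held 1 read over the Y-linked genes Ddx3y, Uty, Kdm5d and Eif2s3y, against 1302 to 2251 reads in the other 11 libraries. ICH-Fabp4fl_fl mouse 1 had 16.3% mitochondrial reads, against 7.90 to 11.9% in the others. Results are therefore also given without single libraries where that matters.

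Sequences before the transcription start are shown for members that rose together after ICH, as the stretch in which shared letters could be read. RefSeq (GRCm38.p6) starts were at hand for 6 of the 10 members, Mrc1, Chil3, Vcan, Ly6c2, Cd80 and Ms4a7, and the 250 bases before the start of 4 of them follow, 5′ to 3′ on the gene's strand, with the near-identical gene Ly6c1 for comparison. Capitals mark letters that match a motif on either strand.
Mrc1, chr2:14229164-14229413, plus strand: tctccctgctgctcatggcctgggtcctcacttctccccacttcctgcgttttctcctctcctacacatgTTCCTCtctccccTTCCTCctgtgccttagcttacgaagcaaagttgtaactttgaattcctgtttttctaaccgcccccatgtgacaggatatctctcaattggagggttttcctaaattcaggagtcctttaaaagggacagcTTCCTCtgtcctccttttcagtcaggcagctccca
Chil3, chr3:106167565-106167814, minus strand: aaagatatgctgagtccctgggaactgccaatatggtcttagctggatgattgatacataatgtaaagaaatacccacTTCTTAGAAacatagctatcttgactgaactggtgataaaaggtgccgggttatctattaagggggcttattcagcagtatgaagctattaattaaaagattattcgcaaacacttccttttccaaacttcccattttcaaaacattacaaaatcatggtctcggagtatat
Ms4a7, chr19:11336147-11336396, minus strand: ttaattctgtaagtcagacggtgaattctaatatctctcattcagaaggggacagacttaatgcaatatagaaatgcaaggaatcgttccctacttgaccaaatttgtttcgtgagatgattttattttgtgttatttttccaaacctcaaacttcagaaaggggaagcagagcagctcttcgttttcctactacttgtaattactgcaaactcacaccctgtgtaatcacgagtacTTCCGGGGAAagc
Ly6c2, chr15:75111972-75112221, minus strand: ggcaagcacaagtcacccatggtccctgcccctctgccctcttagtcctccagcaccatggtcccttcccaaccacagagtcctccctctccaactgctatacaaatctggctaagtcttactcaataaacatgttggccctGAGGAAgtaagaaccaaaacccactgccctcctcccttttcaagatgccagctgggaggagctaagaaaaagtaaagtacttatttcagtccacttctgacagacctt
Ly6c1, chr15:75048838-75049087, minus strand: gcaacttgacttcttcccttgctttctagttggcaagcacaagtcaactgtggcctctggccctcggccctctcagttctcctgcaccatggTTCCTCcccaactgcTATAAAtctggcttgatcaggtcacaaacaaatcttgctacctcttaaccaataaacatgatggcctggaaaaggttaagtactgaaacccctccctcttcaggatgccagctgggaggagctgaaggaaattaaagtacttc

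The motifs searched were GAGGAA (bound by PU.1, the myeloid lineage factor), TTGCNNAA (C/EBP), TGANTCA (AP-1), TTCNNNGAA (STAT factors), TTCNNNNGAA (STAT6, which acts downstream of interleukin-4) and TATAAA (the TATA box), and no matches overlapped each other in the windows shown. The PU.1 letters stood 3 times in the Mrc1 window, once in the Ly6c2 window and once in the Ly6c1 window, and 23.3% of 32851 RefSeq windows of the same length hold them. The Chil3 window held the STAT letters, as do 7.02% of all windows, and the Ms4a7 window held the STAT6 letters at 13 to 4 bases before the start, as do 5.85% of all windows. The Cd80 window and a second Ms4a7 window held the AP-1 letters, found in 6.75% of windows, and the Vcan window held none of the 6 motifs. The C/EBP letters, in 9.56% of all windows, were in no member window, and the TATA letters, in 12.4%, were in the Ly6c1 window but in no member window. The Ly6c2 and Ly6c1 windows aligned over 216 bases with 164 identical (75.9%). A match of letters is a description and no evidence of binding.

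The first comparison asked which polarization genes changed after ICH in mice with intact Fabp4. All 10 members rose in ICH-Fabp4fl_fl over Sham-Fabp4fl_fl, with log2 fold changes from 1.54 for Cd80 to 9.21 for Arg1 and a median of 3.11, against a median of 0.02 over 14719 genes tested. In the same comparison 26.2% of all genes tested were called higher at an adjusted p under 0.05, and 34.4% had every ICH mouse above every sham mouse, as all 10 members did. Arg1, Chil3, Ms4a7 and Ly6c2 had fewer than 10 reads in each sham library and passed the filter on low counts only through the ICH libraries, so their passing is no support. The other 6 members had at least 10 reads in every library, and all 6 rose, against 25.2% of genes held to the same minimum.

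Arg1 (ENSMUSG00000019987) was barely read in sham brain and among the most abundant members after ICH. Its level was 0.434, 0.493 and 0.413 CPM in the Sham-Fabp4fl_fl mice and 601, 164 and 74.4 CPM in the ICH-Fabp4fl_fl mice. Every ICH mouse was far above every sham mouse, and the ICH mice themselves differed 8.08-fold. The log2 fold change was 9.21 ± 0.98 (SE, adjusted p = 0.000641, edgeR). Mrc1 (ENSMUSG00000026712), which border-associated macrophages of the healthy brain also express, was at 3.95, 3.12 and 1.34 CPM in sham and at 21.04, 10.97 and 7.17 CPM after ICH. The lowest ICH mouse was above the highest sham mouse, and Mrc1 rose by 2.16 ± 0.50 (SE, log2, adjusted p = 0.0120, edgeR). Chil3 (ENSMUSG00000040809), also known as Ym1, had 8, 1 and 2 reads in sham (0.386, 0.0548 and 0.103 CPM) and 21.7, 25.5 and 6.91 CPM after ICH, a log2 fold change of 6.49 ± 0.73 (SE, adjusted p = 0.000760, edgeR). Over its exons, 26.9% of 50-base stretches also occur in another gene, 16.9% in Chil4. Chil4 was read 0 times in all ICH-Fabp4fl_fl libraries and at most 5 times in any library.

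Among the classical markers, Nos2 (ENSMUSG00000020826) was at 0.916, 1.21 and 0.671 CPM in Sham-Fabp4fl_fl and at 5.77, 5.05 and 2.39 CPM in ICH-Fabp4fl_fl. The groups did not overlap, and Nos2 rose by 2.18 ± 0.42 (SE, log2, adjusted p = 0.00623, edgeR), a smaller fitted change than that of Arg1, the enzyme that uses the same substrate. Cd86 (ENSMUSG00000022901) rose from 4.29, 2.74 and 2.43 CPM to 26.9, 16.3 and 18.0 CPM, a log2 fold change of 2.65 ± 0.30 (SE, adjusted p = 0.000744, edgeR). Its ICH mice differed by no more than 1.65-fold, the closest agreement after Cd80 and Adgre1. Cd80 (ENSMUSG00000075122), the second B7 ligand, rose from 0.675, 0.931 and 0.826 CPM to 2.67, 2.74 and 1.91 CPM, by 1.54 ± 0.34 (SE, log2, adjusted p = 0.00993, edgeR), and had the lowest level per kilobase of all members after ICH.

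Among the infiltration genes, Ms4a7 (ENSMUSG00000024672), a membrane protein of monocyte-derived and border-associated macrophages that microglia largely lack, had 8, 8 and 2 reads in sham and 20.1, 25.4 and 13.8 CPM after ICH. It rose by 5.92 ± 0.44 (SE, log2, adjusted p = 0.000341, edgeR), with all 3 ICH mice within 1.84-fold of each other. Ly6c2 (ENSMUSG00000022584), a surface marker of inflammatory monocytes, had 9, 7 and 2 reads in sham and 7.46, 19.6 and 6.43 CPM after ICH, a log2 fold change of 5.11 ± 0.64 (SE, adjusted p = 0.00114, edgeR). Its ICH mouse 2 stood 3.05-fold above mouse 3. Reads of Ly6c2 are shared with Ly6c1 over 13.9% of its 50-base stretches, so part of a low Ly6c2 count can come from that gene. Vcan (ENSMUSG00000021614), a proteoglycan made by classical monocytes and by oligodendrocyte precursors, was already at 21.9, 21.4 and 23.0 CPM in sham and reached 72.9, 89.4 and 39.2 CPM, a log2 fold change of 1.56 ± 0.27 (SE, adjusted p = 0.00421, edgeR). Adgre1 (ENSMUSG00000004730) rose from 10.1, 6.24 and 6.97 CPM to 111, 106 and 72.3 CPM, by 3.58 ± 0.25 (SE, log2, adjusted p = 0.000305, edgeR), the member with the smallest standard error. All 3 ICH mice were at least 72.3 CPM and no sham mouse was above 10.1 CPM.

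**Figure D1:**
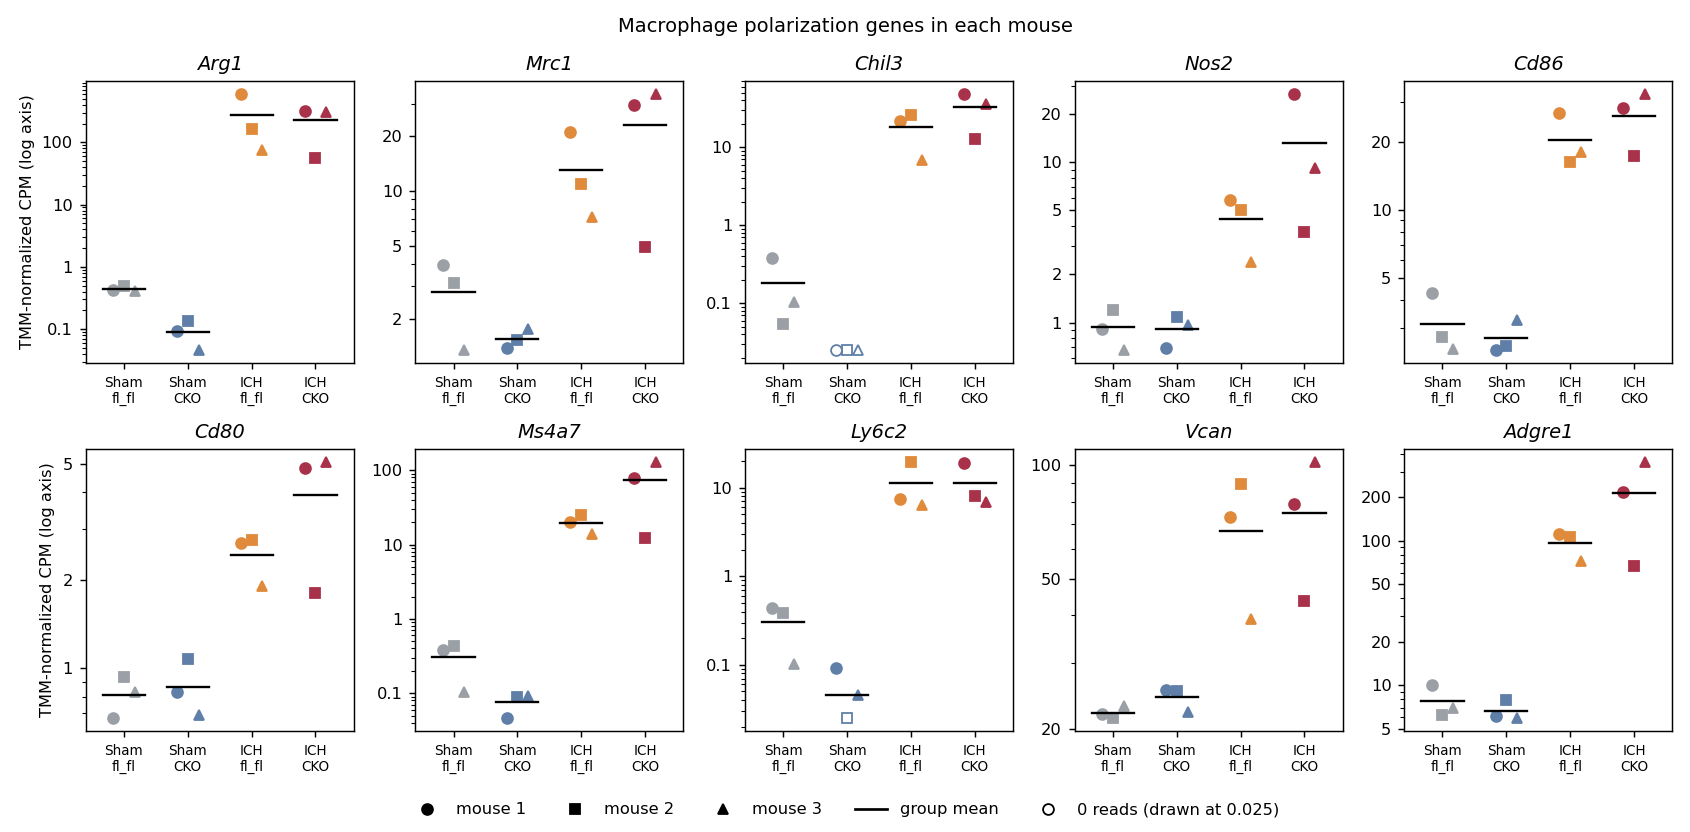
TMM-normalized CPM (log axis) of each of the 10 genes in each mouse, by group; each symbol is 1 mouse, the bar is the mean of 3 mice, and open symbols stand for 0 reads. All ICH mice lie above all sham mice of their genotype for every gene, while the ICH-Fabp4fl_fl and ICH-Fabp4CKO mice overlap for every gene.

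Lengths differ between genes, so levels were compared between members only as CPM per kilobase of exon. In Sham-Fabp4fl_fl mice the order began with Adgre1 (2.40 ± 0.636 CPM per kilobase, SD, n = 3), Vcan (1.53 ± 0.0571) and Cd86 (0.861 ± 0.272), and these 3 did not overlap with the next gene in the order. Mrc1, Cd80, Nos2 and Arg1 followed between 0.440 and 0.200 CPM per kilobase, with overlap between neighbors among these genes. Ly6c2, Chil3 and Ms4a7 were lowest, and Arg1 did not overlap with Ly6c2, the next in the order. In ICH-Fabp4fl_fl mice Arg1 came first at 125 ± 126 CPM per kilobase (SD, n = 3), then Adgre1 at 29.8 ± 6.49 and Chil3 at 11.1 ± 6.02. Adgre1 stood clear of Chil3, and the other 8 of 9 neighboring pairs overlapped. In ICH-Fabp4CKO mice the order again began with Arg1 (101 ± 66.1), Adgre1 (65.7 ± 44.0) and Chil3 (19.8 ± 11.1), Ms4a7 followed at 16.6 ± 13.3, and all 9 neighboring pairs overlapped. Cd80 was last in both, at 0.660 ± 0.124 and 1.06 ± 0.493 CPM per kilobase. Gene lengths were taken from an annotation that may not be the one the authors used.

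The same question in Fabp4CKO mice gave the same 10 members. All 10 rose in ICH-Fabp4CKO over Sham-Fabp4CKO, with a median log2 fold change of 4.44 against 0.01 over 14737 genes tested, of which 24.5% were called higher and 33.2% had every ICH mouse above every sham mouse. Of the 6 members with at least 10 reads in every library all 6 rose, against 22.7% of genes held to that minimum. Cd86 rose by 3.25 ± 0.29 (SE, log2, adjusted p = 0.00478, edgeR), Adgre1 by 4.998 ± 0.65 (adjusted p = 0.00628), Mrc1 by 3.88 ± 0.73 (adjusted p = 0.0136), Nos2 by 3.84 ± 0.78 (adjusted p = 0.0165), Cd80 by 2.17 ± 0.46 (adjusted p = 0.0192) and Vcan by 1.63 ± 0.31 (adjusted p = 0.0138). The calls of Mrc1, Nos2, Cd80 and Vcan rested on every sham library: leaving out any 1 of the 3 left 6 members called, with adjusted p from 0.0647 to 0.0825 for these 4 and their directions kept. Without Sham-Fabp4CKO mouse 3 the fit called 701 genes higher in all, against 3605 with every library, so the lost calls were not particular to these members. Without ICH-Fabp4CKO mouse 1, the calls of Mrc1, Cd80 and Vcan were lost, and without mouse 3 that of Cd80 (adjusted p = 0.0509).

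Arg1, Chil3, Ms4a7 and Ly6c2 were at or under 3 reads in all Sham-Fabp4CKO libraries, so their fitted fold changes depend on the count added in the fit. Chil3 was read 0 times in all 3, and its ICH-Fabp4CKO level was 48.3, 12.6 and 36.0 CPM. The mean of these mice, 32.3 CPM, was 236-fold above the 0.137 CPM of 3 counts per library, a lower bound for the ratio of means. Arg1 had 2, 3 and 1 reads in sham and 315, 56.1 and 307 CPM after ICH, a ratio of summed reads per library size of 2406 (95% counting interval 1105 to 6558). Ms4a7 had 1, 2 and 2 reads in sham and 78.9, 12.3 and 130.1 CPM after ICH, a ratio of 958 (410.2 to 2953). Ly6c2 had 2, 0 and 1 reads in sham and 19.1, 7.99 and 6.94 CPM after ICH, a ratio of 239 (81.4 to 1162). The intervals are exact, cover counting error only and leave out the spread between mice.

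**Figure D2:**
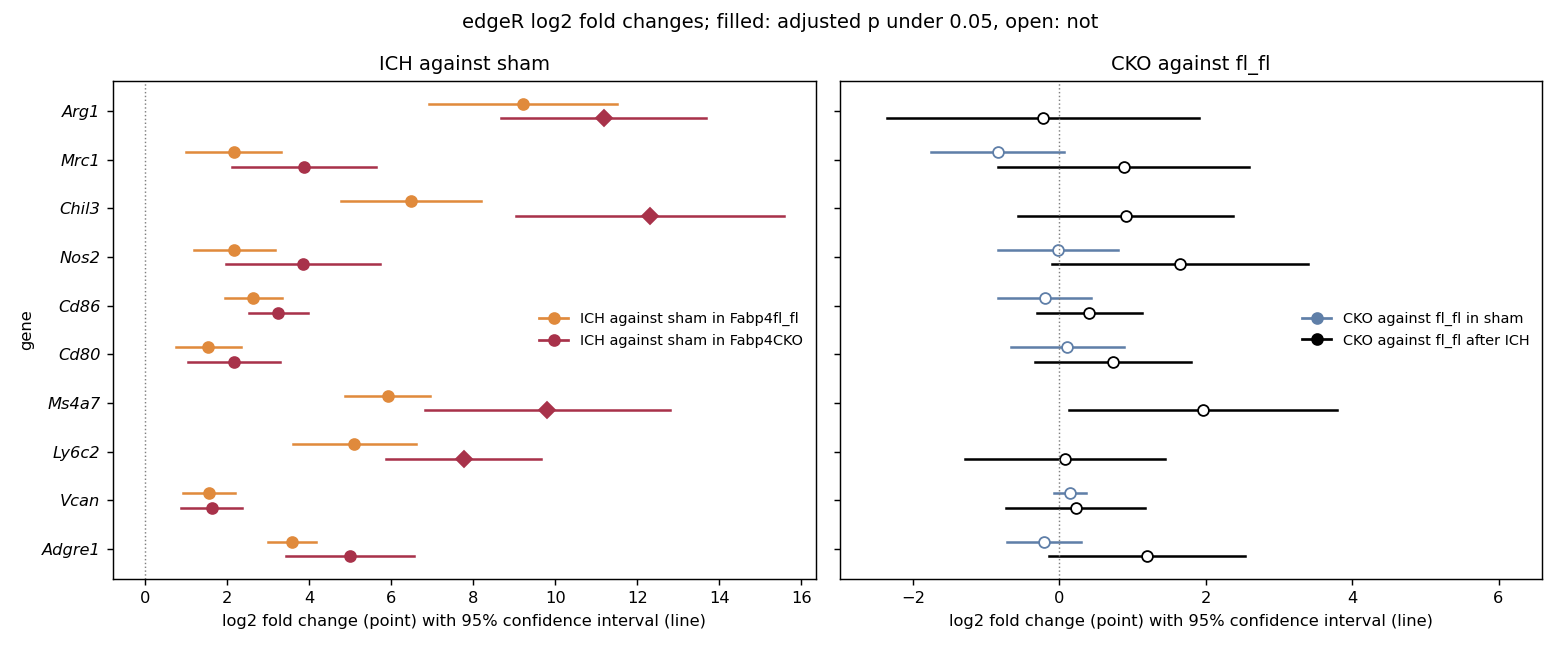
Log2 fold changes of the 10 genes with 95% confidence intervals from edgeR, for ICH against sham in each genotype (left) and for Fabp4CKO against Fabp4fl_fl in each condition (right). Filled symbols passed an adjusted p of 0.05, open ones did not, and diamonds mark genes at or under 3 reads in every Sham-Fabp4CKO library, whose fitted value is no bound. All left-hand symbols are filled and all right-hand symbols are open.

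The comparison of Fabp4CKO with Fabp4fl_fl after ICH asked whether microglial loss of Fabp4 changed these genes in the injured tissue. No member passed the adjusted threshold with edgeR or DESeq2, and neither did any of 14600 genes with edgeR (0.0%), while 12.2% of genes had an unadjusted p under 0.05. Of the members, 1 did so, Ms4a7 (edgeR, unadjusted p = 0.0395, adjusted p = 0.389). The ICH groups overlapped for every member, and 19.8% of all genes had groups that did not overlap. The fitted log2 fold change was above 0 for 9 members and below 0 for Arg1, with a median of 0.81 against 0.06 over all genes tested.

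Ms4a7 was at 20.1, 25.4 and 13.8 CPM in ICH-Fabp4fl_fl and at 78.9, 12.3 and 130.1 CPM in ICH-Fabp4CKO. CKO mice 1 and 3 stood above all Fabp4fl_fl mice and CKO mouse 2 below them all. The log2 fold change was 1.96 ± 0.76 (SE), with a 95% interval from 0.13 to 3.80. Adgre1 showed the same arrangement, with 111, 106 and 72.3 CPM against 219, 67.1 and 352 CPM and a log2 fold change of 1.20 ± 0.56 (SE, adjusted p = 0.445, edgeR). Without ICH-Fabp4CKO mouse 2 the adjusted p of both genes was 0.0697, the lowest of 13 alternatives, and without mouse 3 the log2 fold change fell to 1.26 for Ms4a7 and to 0.63 for Adgre1. Ly6c2 did not share the arrangement: its levels were 7.46, 19.6 and 6.43 CPM against 19.1, 7.99 and 6.94 CPM. In each genotype 1 mouse was high and the other 2 lay between 6.43 and 7.99 CPM, and the log2 fold change was 0.08 (95% interval -1.29 to 1.45). Vcan differed by 0.22 (-0.73 to 1.18), and the directions of both Ly6c2 and Vcan turned when single mice were left out.

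Arg1 was at 601, 164 and 74.4 CPM against 315, 56.1 and 307 CPM, so the highest and the lowest of the 6 mice belonged to different genotypes. The log2 fold change of -0.22 had a 95% interval from -2.35 to 1.90, and it became 0.97 without ICH-Fabp4fl_fl mouse 1, the library with the highest mitochondrial share, and 0.24 without ICH-Fabp4CKO mouse 2. Mrc1 was at 21.04, 10.97 and 7.17 CPM against 29.6, 4.96 and 34.0 CPM, a log2 fold change of 0.88 (-0.83 to 2.59). Chil3 was at 21.7, 25.5 and 6.91 CPM against 48.3, 12.6 and 36.0 CPM, a log2 fold change of 0.91 (-0.56 to 2.38). For both genes CKO mice 1 and 3 were highest of all 6.

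Nos2 had 5.77, 5.05 and 2.39 CPM against 26.7, 3.68 and 9.19 CPM, a log2 fold change of 1.65 (-0.10 to 3.40, adjusted p = 0.429, edgeR). Much of this rested on CKO mouse 1: without it the value was 0.62. Adgre1 and Ms4a7 were higher in CKO mouse 3 than in that mouse. Cd86 was the most even member, at 26.9, 16.3 and 18.0 CPM against 28.1, 17.3 and 32.6 CPM, and its log2 fold change of 0.41 had the interval -0.31 to 1.13. Cd80 was at 2.67, 2.74 and 1.91 CPM against 4.85, 1.81 and 5.08 CPM (0.74, -0.33 to 1.80). These intervals include differences of several fold for most members, so a p above the threshold does not show equal levels.

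The spread between mice of 1 genotype was the main feature of the ICH groups. ICH-Fabp4CKO mouse 2 was lowest of its group for 9 of 10 members and lowest of all 6 ICH mice for 5, Arg1, Mrc1, Cd80, Ms4a7 and Adgre1. ICH-Fabp4CKO mouse 3 was highest of all 6 for 6 members, and mouse 1 of that group for Chil3 and Nos2. In ICH-Fabp4fl_fl, mouse 3 was lowest of its group for 9 members, and mice 1 and 2 shared the highest place, 5 members each. Within ICH-Fabp4CKO the highest mouse was 10.6-fold above the lowest for Ms4a7, 7.26-fold for Nos2, 6.86-fold for Mrc1 and 1.88-fold for Cd86.

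Some markers of other cells moved with these mice. The sum of 9 oligodendrocyte precursor markers differed little between them, at 870, 842 and 885 CPM in ICH-Fabp4CKO mice 1, 2 and 3. Genes of neurons, measured as log2 CPM against the mean of the 6 ICH mice, were highest in CKO mouse 2 for Rbfox3 (1.12), Snap25 (0.78), Syt1 (1.23) and Slc17a7 (3.22). Gad1, the remaining neuronal gene of the list, was at 0.52 in that mouse and highest in ICH-Fabp4fl_fl mouse 3 (0.84). Summed over 11 neutrophil markers the level was 266, 77.9 and 389 CPM in ICH-Fabp4CKO mice 1, 2 and 3 and 57.0 to 123 CPM in ICH-Fabp4fl_fl. In Fabp4fl_fl 6 of 7 neutrophil markers tested rose after ICH, beside 26.2% of all genes, among them Mmp8 (8.09), S100a8 (4.46) and Cxcr2 (4.14, log2). Mmp8, S100a8 and Cxcr2 had too few reads in sham to be tested between the sham groups. They passed the filter on low counts only through the ICH libraries, so their rise is no support. Ngp had the smallest value, -0.25, and did not pass. Ly6g had 0 reads in the ICH-Fabp4fl_fl libraries and 0 to 18 in the ICH-Fabp4CKO libraries. Between the genotypes after ICH, 9 of 9 neutrophil markers tested had fitted values above 0 and 6 an unadjusted p under 0.05 in edgeR's quasi-likelihood test, where 12.2% of all genes had one, and 0 passed the adjusted test. Summed over 11 microglia markers the level was 3160, 1654 and 4657 CPM in ICH-Fabp4CKO and 1642 to 1891 CPM in ICH-Fabp4fl_fl, and of these 11 genes 3 had an unadjusted p under 0.05, beside the same 12.2% of all genes, and 0 an adjusted one. The sums of 10 endothelial markers were 362 to 509 CPM in ICH-Fabp4CKO and 700.4 to 1565 CPM in ICH-Fabp4fl_fl, without overlap. Among all genes tested, 19.8% had ICH groups that did not overlap. All 10 endothelial fitted values were below 0, 9 had an unadjusted p under 0.05 in edgeR's quasi-likelihood test, beside 12.2% of all genes, and 0 passed the adjusted one. The part of these cells in the members' levels, and that of how much hematoma border each sample held, was not tested.

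**Figure D3:**
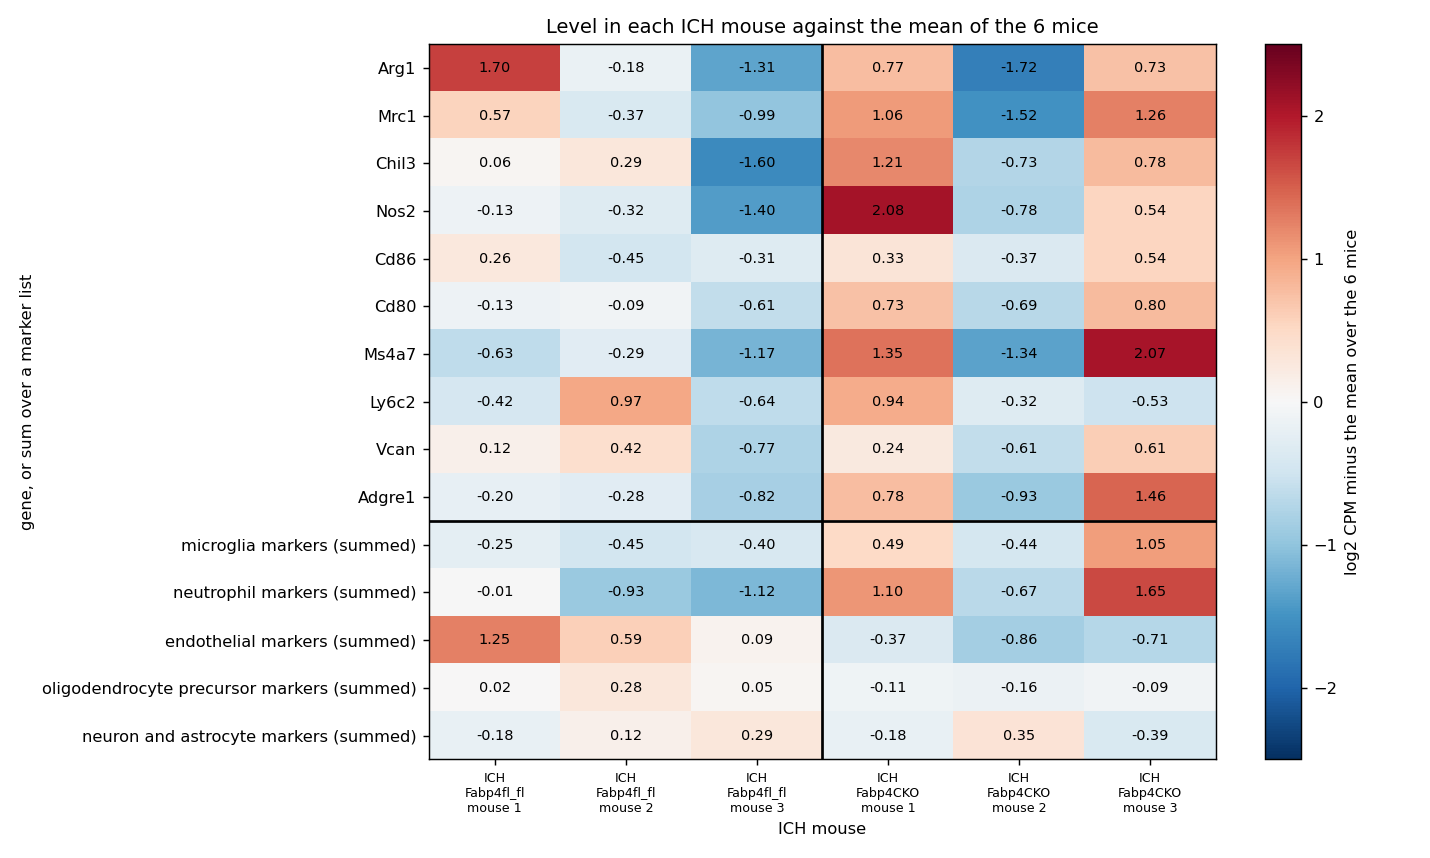
Log2 CPM of the 10 genes (above the line) and of summed marker lists (below it) in each of the 6 ICH mice, minus the mean over the 6 mice. ICH-Fabp4CKO mouse 2 is below the mean for all 10 genes, and mice 1 and 3 of that group are above it for all but Ly6c2 in mouse 3.

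A ratio between 2 genes of 1 library does not depend on scaling between libraries, so 8 ratios were compared between the ICH groups by exact two-sided permutation tests over mice, which cannot give a p below 0.1 with 3 mice against 3. The log2 ratio of Arg1 to Nos2 was 6.69, 5.01 and 4.94 in ICH-Fabp4fl_fl and 3.56, 3.92 and 5.06 in ICH-Fabp4CKO. All 6 mice held more Arg1 than Nos2 reads, CKO mouse 3 fell within the Fabp4fl_fl range, and the difference of -1.37 had an exact p of 0.3 (0.64 adjusted over 8 ratios). The ratio of Mrc1 to Cd86 was -0.35, -0.57 and -1.33 against 0.07, -1.80 and 0.06, so 2 CKO mice were above and 1 below all others (difference 0.19, exact p = 0.8).

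Adgre1 served as a gene of all macrophages against which to set the members. The log2 ratio of Arg1 to Adgre1 was 2.43, 0.63 and 0.04 in ICH-Fabp4fl_fl and 0.52, -0.26 and -0.20 in ICH-Fabp4CKO, a difference of -1.01 (exact p = 0.2, adjusted 0.64) that was -0.31 without ICH-Fabp4fl_fl mouse 1. The ratio of Ms4a7 to Adgre1 was -2.47, -2.06 and -2.39 against -1.47, -2.45 and -1.44, higher in CKO mice 1 and 3 than in the other 4 (difference 0.52, exact p = 0.3). The ratio of Ly6c2 to Adgre1 was lowest in CKO mouse 3, at -5.66, where Adgre1 was highest. The differences of the Mrc1, Nos2, Cd86 and Ly6c2 ratios to Adgre1 lay between -0.81 and 0.36, with exact p from 0.4 to 0.7. The groups overlapped for all 8 ratios, and the test could not have passed 0.05 with these numbers of mice.

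**Figure D4:**
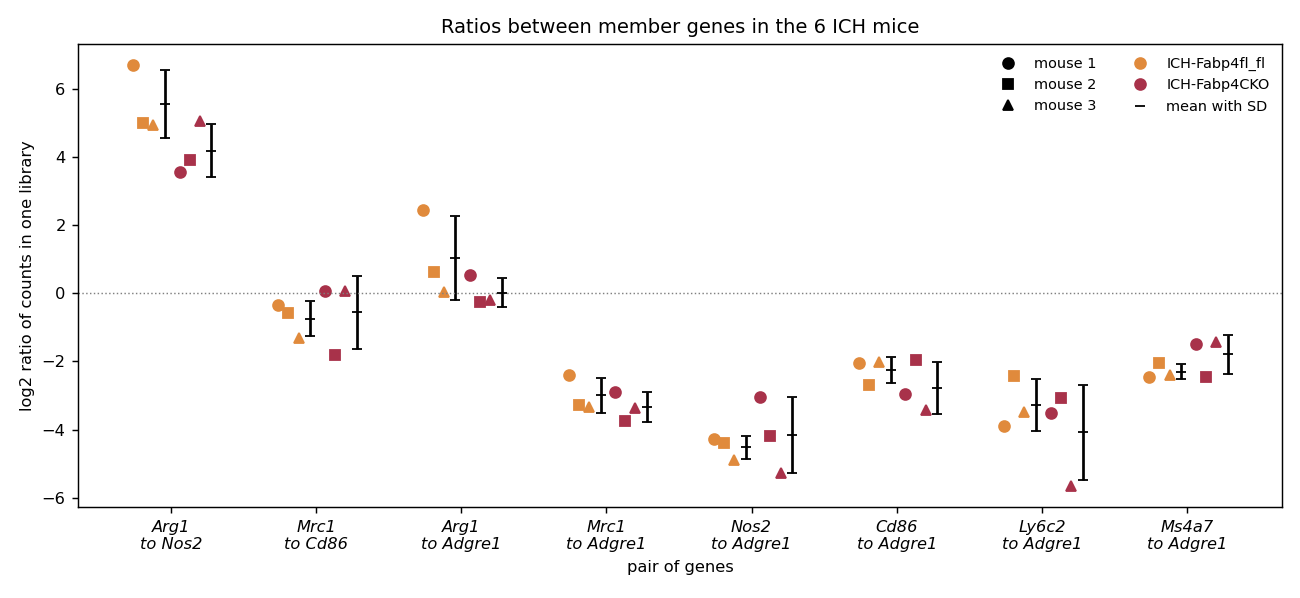
Log2 ratio of counts between pairs of the genes within each of the 6 ICH libraries; each symbol is 1 mouse and the bars give the mean with its SD (n = 3). The Fabp4fl_fl and Fabp4CKO mice overlap in all 8 ratios, and the Arg1 to Nos2 ratio is highest in ICH-Fabp4fl_fl mouse 1 at 6.69.

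In sham mice the comparison of genotypes showed how these genes stood without hemorrhage. Of 6 members tested, 0 passed the adjusted threshold in edgeR or DESeq2, beside 0.111% of 14395 genes called with edgeR. None of the 6 had an unadjusted p under 0.05 in edgeR's quasi-likelihood test, beside 1471 of the 14395 genes. Mrc1 was at 3.95, 3.12 and 1.34 CPM in Sham-Fabp4fl_fl and at 1.39, 1.52 and 1.75 CPM in Sham-Fabp4CKO, so Fabp4fl_fl mouse 3 lay below all CKO mice. Its log2 fold change of -0.84 ± 0.39 (SE) had an adjusted p of 0.496 in edgeR, which became 0.0157 without that mouse, in a fit that called 1531 genes higher and 1331 lower, so the added call was not particular to Mrc1. Nos2, Cd86, Cd80, Vcan and Adgre1 differed by -0.21 to 0.15 on the log2 scale, and the widest 95% interval, that of Nos2, ran from -0.84 to 0.81.

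Arg1, Chil3, Ms4a7 and Ly6c2 had too few reads in sham for the fit. Each had fewer reads in Sham-Fabp4CKO than in Sham-Fabp4fl_fl: 6 against 26 for Arg1, 0 against 11 for Chil3, 5 against 18 for Ms4a7 and 3 against 18 for Ly6c2, summed over 3 mice. In CPM the groups did not overlap for these 4 genes, and an exact permutation test gave p = 0.1 for each, the smallest it can give. Among genes under the filter with a read in any sham library, 7.87% had every CKO mouse below every Fabp4fl_fl mouse. For Ms4a7 the separation came down to 2 reads in the lowest Fabp4fl_fl mouse and 2 in the highest CKO mouse, in libraries of different depth. The same held for Ly6c2, with 2 reads against 2, and for Chil3 it was 1 read against 0. Ccr2, the chemokine receptor of inflammatory monocytes, had 14, 8 and 8 reads against 3, 2 and 0, and the border-associated macrophage gene Cbr2 had a log2 fold change of -3.30 ± 0.66 (SE, adjusted p = 0.242, edgeR). Of 6 border-associated macrophage markers tested in sham, Mrc1 among them, 2 had fitted values above 0, with Stab1 highest at 0.09, and 0 passed. These counts matter for the comparison that follows, since each genotype's ICH value is set against its own sham group.

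The interaction of ICH and genotype asked whether the change after ICH differed between genotypes. No member passed with edgeR, where 0.0199% of 15089 genes did, and 2 members, Chil3 and Ms4a7, were among the 9.94% with an unadjusted p under 0.05. The fitted interaction was above 0 for all 10 members, with a median of 1.64 against 0.03 over all genes. Chil3 had 5.70 ± 2.29 (SE, log2, unadjusted p = 0.0348, adjusted p = 0.444, edgeR), Ms4a7 had 3.83 ± 1.57 (unadjusted p = 0.0333, adjusted p = 0.444, edgeR), Ly6c2 had 2.61 ± 1.23 (adjusted p = 0.518, edgeR) and Arg1 had 1.90 ± 1.70 (adjusted p = 0.744, edgeR). These 4 genes rest on a Sham-Fabp4CKO group at or under 3 reads in each library, and the fitted genotype difference of Arg1 after ICH itself was -0.22. DESeq2 called Chil3 (adjusted p = 0.0436), in a fit that called 183 genes higher and 83 lower. Without ICH-Fabp4CKO mouse 2, Ms4a7 (4.33, adjusted p = 0.0341) and Adgre1 (1.79, adjusted p = 0.0377) passed with edgeR. That fit called 260 genes higher and 111 lower, so the added calls were not particular to these members. The difference was 1.37 ± 0.65 for Adgre1, 1.66 ± 0.92 for Mrc1, 1.61 ± 0.90 for Nos2, 0.56 ± 0.43 for Cd86, 0.58 ± 0.56 for Cd80 and 0.02 ± 0.44 for Vcan (log2, SE), with adjusted p from 0.524 to 0.993 (edgeR).

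The genes around the members were described by lists of known roles. Among all genes tested, 26.2% were called higher after ICH in Fabp4fl_fl and 24.5% in Fabp4CKO, the shares for the counts below. List genes with few reads in sham passed the filter on low counts only through the ICH libraries, so their rise is no support. Of 13 further genes of infiltrating monocytes and macrophages, 13 rose after ICH in Fabp4fl_fl (median log2 fold change 5.40), from 1.51 for Itga4, an integrin of leukocyte entry, to 7.06 for Ms4a4c, and 13 of 13 rose in Fabp4CKO (median 6.90). Ccr2 was at 0.413 to 0.675 CPM in Sham-Fabp4fl_fl and at 24.7, 33.7 and 9.78 CPM in ICH-Fabp4fl_fl, and it rose by 5.40 ± 0.53 (SE, log2, adjusted p = 0.000518, edgeR). After ICH Ccr2 was at 47.5, 12.5 and 29.1 CPM in Fabp4CKO, overlapping with Fabp4fl_fl (0.45 ± 0.58). The lysozyme gene Lyz2 had the largest fitted difference of this list between genotypes after ICH, 2.12 ± 0.76 (SE, adjusted p = 0.360, edgeR), and Plac8 the smallest, -0.18 ± 0.64.

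Of 14 further classical activation genes tested, 12 rose and 0 fell after ICH in Fabp4fl_fl (median 3.85), led by the scavenger receptor Marco (6.88 ± 0.72, SE). In Fabp4CKO 15 of 15 rose (median 6.34), with the cytokine Il6 largest (9.07 ± 1.87). Il6 and Cxcl9 were read 0 times in every Sham-Fabp4CKO library, and 9 of 22 classical genes were at or under 3 reads in each. Those of them that were tested passed the filter only through the ICH libraries. Their rise is no support, and their fitted values depend on the count added in the fit. Il23a, at 0.86 ± 0.74, had the smallest value in Fabp4fl_fl and did not pass. Of 9 further alternative activation genes tested, 6 rose and 1 fell in Fabp4fl_fl (median 2.05), and 6 rose and 0 fell in Fabp4CKO (median 2.66). The one that fell was Egr2, a transcription factor, at -1.86 ± 0.39 (SE, adjusted p = 0.00862, edgeR), and in Fabp4CKO it had -0.93 ± 0.47 (adjusted p = 0.148). Retnla, another marker of alternative activation in mice, and Chil4 had at most 5 reads in any library. After ICH 0 genes of either list differed between genotypes in edgeR, with list medians of 0.30 for 12 alternative and 0.41 for 19 classical genes, members included, beside 0.06 over all genes; 1 and 2 of them had an unadjusted p under 0.05, beside 12.2% of all genes. Egr2 (2.01 ± 0.33) and the chemokine Cxcl9 (-2.36 ± 0.96) were at the ends of these lists, with adjusted p of 0.252 and 0.400 in edgeR.

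The cytokines that drive alternative and classical activation were themselves at the floor. Il4 was read 0 times in all 12 libraries, Il13 once in 1 library, and Ifng, Il10 and Csf2 at most 4 times in any library, so no change could be measured at this depth. Il33, an alarmin of glia, was at 106 ± 33.3 CPM in Sham-Fabp4fl_fl and 226 ± 60.2 CPM in ICH-Fabp4fl_fl (SD, n = 3) and rose by 1.04 ± 0.29 (SE, log2, adjusted p = 0.0243, edgeR). Their receptors were well read. Il4ra, the shared interleukin-4 and interleukin-13 receptor, was at 9.49, 8.05 and 7.59 CPM in Sham-Fabp4fl_fl and 169, 91.1 and 62.4 CPM in ICH-Fabp4fl_fl, without overlap, a rise of 3.63 ± 0.36 (adjusted p = 0.000530, edgeR). Ifngr1, the ligand-binding interferon-gamma receptor chain, rose by 1.495 ± 0.13 (adjusted p = 0.000400, edgeR), and Ifngr2 had 0.45 ± 0.21 (adjusted p = 0.121). In all, 16 of 19 signals, receptors and factors tested rose in Fabp4fl_fl, led by Csf2rb (4.62 ± 0.36), beside 26.2% of all genes. In Fabp4CKO 17 of 19 rose, beside 24.5% of all genes, again led by Csf2rb (6.62 ± 0.66), with Klf4 smallest (0.27 ± 0.22). After ICH none of the 19 differed between genotypes in edgeR and 1 had an unadjusted p under 0.05, beside 12.2% of all genes. The fitted values ran from -0.37 for Csf1 to 1.63 for Pparg.

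Arg1 and Nos2 compete for arginine. Of 12 further genes of that pathway tested, 4 rose and 2 fell after ICH in Fabp4fl_fl (median 0.37), where 3862 of all 14719 genes rose and 2845 fell, and 5 rose and 1 fell in Fabp4CKO (median 0.24), where 3605 of 14737 rose and 1642 fell. These shares lay near those of all genes. Arg2, the mitochondrial arginase, was at 5.40, 5.09 and 7.44 CPM in Sham-Fabp4fl_fl and 6.54, 4.80 and 8.98 CPM in ICH-Fabp4fl_fl, with overlapping groups and a log2 fold change of 0.15 ± 0.30 (SE, adjusted p = 0.701, edgeR). The arginine transporter Slc7a2 was at 28.6, 29.5 and 30.0 CPM in sham and 78.4, 153 and 78.4 CPM after ICH and rose by 1.77 ± 0.27 (adjusted p = 0.00254, edgeR). Nos1, the neuronal synthase, fell by 1.70 on the log2 scale (SE 0.47, adjusted p = 0.0227, edgeR). After ICH 0 of the 14 pathway genes differed between genotypes in edgeR and 0 had an unadjusted p under 0.05, beside 12.2% of all genes. Nos3, the endothelial synthase, was lowest at -0.93 ± 0.44.

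Of the partners of Cd80 and Cd86, Cd28 rose from 4, 3 and 1 reads in Sham-Fabp4fl_fl to 38, 93 and 54 in ICH-Fabp4fl_fl, by 4.68 ± 0.57 (SE, log2, adjusted p = 0.00104, edgeR). It reached 16.9, 1.44 and 34.6 CPM in ICH-Fabp4CKO, where mouse 2 was again lowest, a log2 fold change of 2.28 ± 0.99 against Fabp4fl_fl (adjusted p = 0.423, edgeR). Ctla4, the inhibitory partner, had at most 7 reads in any library and was not tested. Beside the members, 5 genes of the B7 list were tested in Fabp4fl_fl, Cd28 among them, and all 5 rose, from 1.28 for Icosl to 5.83 for Icos. In Fabp4CKO 4 of 4 rose, again with Cd28, which had 1 read in each Sham-Fabp4CKO library. Of 7 T cell markers, 5 of 6 tested rose in Fabp4fl_fl and 3 of 5 in Fabp4CKO, beside 26.2% and 24.5% of all genes. Their summed level was 17.5 to 46.5 CPM in Sham-Fabp4fl_fl and 19.4 to 63.5 CPM in ICH-Fabp4fl_fl. In Fabp4CKO it was 30.4 to 59.1 CPM in sham and 27.3 to 39.1 CPM after ICH, so sham and ICH sums overlapped in both genotypes. Cd4 had at least 321 reads in every sham library, with fitted values of -0.12 in Fabp4fl_fl and -0.66 in Fabp4CKO, so the sum is no measure of T cells.

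Mrc1 and Ms4a7 also mark border-associated macrophages. Of 7 further markers of those cells, 4 rose in Fabp4fl_fl (median 3.46), led by the platelet factor Pf4 (6.76 ± 0.72, SE), and 6 in Fabp4CKO (median 6.02). The shares of all genes called higher were 26.2% and 24.5%. The hemoglobin scavenger receptor Cd163 had 0.08 ± 0.66 and -0.84 ± 0.31 (adjusted p = 0.926 and 0.0724, edgeR), so it did not pass in either genotype. Vcan is also a gene of oligodendrocyte precursors, and of 9 markers of those cells 4 rose after ICH in Fabp4fl_fl, led by Cspg4 (0.98 ± 0.19), with a summed level of 705 to 807 CPM in Sham-Fabp4fl_fl and 949 to 1141 CPM after ICH. In Fabp4CKO, where Vcan rose by 1.63, that sum was 789 to 803 CPM in sham and 842 to 885 CPM after ICH. There 2 of 9 precursor markers rose, near the 24.5% of all genes called higher.

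Ly6c1, the near copy of Ly6c2 with the aligned window shown above, had another pattern. It is known as a gene of brain endothelium, and it was at 58.1, 50.6 and 45.3 CPM in Sham-Fabp4fl_fl and 179, 99.4 and 92.3 CPM in ICH-Fabp4fl_fl, a rise of 1.22 ± 0.26 (SE, log2, adjusted p = 0.00887, edgeR). In Fabp4CKO it was at 40.3, 41.4 and 40.6 CPM in sham and 54.0, 53.6 and 40.6 CPM after ICH, with overlapping groups (0.28 ± 0.14, adjusted p = 0.154). After ICH the genotypes did not overlap for Ly6c1, with a log2 fold change of -1.26 ± 0.28 (unadjusted p = 0.00361, adjusted p = 0.295, edgeR), whereas they did for Ly6c2. Of all genes tested, 19.8% had ICH groups that did not overlap.

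The genes whose pattern over the 12 libraries was most like that of a member were found by the root mean square (RMS) difference in centred log2 CPM among 14201 genes. For Arg1 these were Msr1, a scavenger receptor (RMS 0.58), Gm49339 (0.63) and the galectin Lgals3 (0.69). Dram1 (0.22), Tnfrsf11a (0.25) and Mdfi (0.28) were nearest to Mrc1, and the formyl peptide receptors Fpr2 (0.29) and Fpr1 (0.35) and the AP-1 subunit Fosl1 (0.39) to Nos2. Ly6c2 was followed by Ms4a4c (0.41), S1pr3 (0.41) and Osmr (0.42). Adgre1 had the closest neighbors, Grn (0.14), Myo1f (0.15) and Neurl3 (0.16), all higher on average in ICH-Fabp4CKO than in ICH-Fabp4fl_fl. No other member was among the 3 nearest of any of these 5 genes.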

How the data were processed

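Poly(A) RNA from tissue next to the hematoma was sequenced in 12 mice, 3 in each of 4 groups taken from the sample labels. The authors deposited 1 table of estimated counts per gene with Ensembl identifiers and symbols; most values are whole and 7.36 to 8.69% per library are not, so they were rounded before any test. The submitters' processing notes name Bowtie2 2.2.8, HISAT2, StringTie 1.3.1 and DESeq2 without their roles; the genome build, annotation and counter are not given in the sources used here, and how reads shared between genes were assigned was not stated. Whether counting used the strand was not stated; without it, a gene and its antisense partner cannot be told apart.

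Counts were filtered (filterByExpr, minimum count 10, minimum total 15), TMM-normalized and tested with edgeR 4.0.16 (R 4.3.3) by the quasi-likelihood F-test on the groups compared, with the interaction on all 12 libraries. P-values were adjusted by Benjamini-Hochberg over all genes tested, with a threshold of 0.05. Ratios used counts with 0.5 added. DESeq2 1.42.0, other normalizations, other filters, a fit of all libraries, a replicate block and leaving out each mouse were the alternatives. The scripts were tested on simulated data. Whether replicates came from separate litters or days was not stated, and p-values measure the spread between these mice.

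The members, the gene lists, the motifs and the ratios were chosen with earlier results of these data known. Named genes were the 10 members, their partners (Fabp4, Il4ra, Ifngr1, Cd28, Ctla4, Arg2, Slc7a2, Ly6c1, Chil4, Ccr2) the genes with the largest and smallest change of a list, and the 3 genes most like each of 5 members. Il33, the cytokines at the floor, Retnla, Ly6g, S100a8, Cxcr2 and the neuron genes fall outside this rule and were chosen after their values were seen. Replicate numbers were not used to pair the mice in the main test. Deviations of same-numbered mice correlated at 0.04 to 0.23 for ICH against sham in Fabp4fl_fl and -0.01 to 0.01 in Fabp4CKO. Between genotypes they correlated at -0.63 to 0.39 after ICH and -0.24 to 0.07 in sham, so in no comparison did every pair exceed 0.1. For ICH against sham in Fabp4fl_fl the mean was 0.15 for same-numbered mice and -0.07 for other pairs, so a pairing there is not excluded. In Fabp4CKO these means were 0.005 and -0.003. Between genotypes the same-numbered mean was the lower one, after ICH (-0.14 against 0.08) and in sham (-0.10 against 0.05). The labels give no shared litter or day.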

Additional observations from a re-analysis of the deposited data

How the results depend on the processing

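The 10 members stayed higher in ICH-Fabp4fl_fl than in sham under every alternative that tested them. With at least 10 counts in every library, 6 members were tested and 6 rose in either genotype, since 4 had fewer reads in sham. In Fabp4CKO, leaving out 1 mouse gave 6 to 10 members called, and the replicate block gave 9, without Cd80 (2.07, adjusted p = 0.0526, edgeR). The replicate block changed no other member's call. After ICH no member passed under any alternative.

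Counts over all genes depended on the tool. Genes lower in ICH-Fabp4CKO than in sham were 3541 with DESeq2 and 2558 with all 12 libraries in one fit, and 50 to 4896 leaving out 1 mouse (higher: 701 to 5203). Genes lower in ICH-Fabp4fl_fl than in sham were 1465 to 3856. After ICH, DESeq2 called 255 higher and 323 lower in Fabp4CKO, the fit of all 12 libraries 154 and 208, and leaving out 1 mouse 0 to 2 higher. In sham, DESeq2 called 11 higher and 139 lower, the stricter filter 2 lower, and leaving out 1 mouse 0 to 1531 higher and 0 to 1331 lower, both largest without Sham-Fabp4fl_fl mouse 3, where 0 to 1 members were lower (Mrc1). For the interaction, DESeq2 called 183 genes higher, with 1 member (Chil3, 5.36, adjusted p = 0.0436), and 83 lower, the stricter filter 1 higher, the replicate block 1 higher and 0 lower, and leaving out 1 mouse 0 to 260 higher, 0 to 111 lower and 0 to 2 members, largest without ICH-Fabp4CKO mouse 2.

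Directions of uncalled members turned when single mice were left out. After ICH the ranges were -0.72 to 0.97 for Arg1, -0.52 to 0.76 for Ly6c2 and -0.0811 to 0.50 for Vcan. In sham they were -0.20 to 0.21 for Nos2, -0.36 to 0.0766 for Cd86, -0.0745 to 0.24 for Cd80 and -0.35 to 0.0116 for Adgre1, and for the interaction -0.27 to 0.30 for Vcan. The cause was not tested. Precision differed between members: after ICH the 95% interval of the log2 difference between genotypes ran from -2.35 to 1.90 for Arg1 and from -0.31 to 1.13 for Cd86.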

Other observations

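Dendritic cells also express Cd80 and Cd86. Of 8 dendritic cell markers in the table, 4 were tested for ICH against sham in Fabp4fl_fl and 2 rose, with Ccr7, a chemokine receptor of migrating dendritic cells, highest at 3.22 (log2) and the cytokine receptor Flt3 lowest at -0.82. In Fabp4CKO, 3 of 5 tested rose. The shares of all genes called higher were 26.2% in Fabp4fl_fl and 24.5% in Fabp4CKO. Their summed level was 15.1 to 23.2 CPM in Sham-Fabp4fl_fl, 28.1 to 49.4 CPM in ICH-Fabp4fl_fl and 40.02 to 135 CPM in ICH-Fabp4CKO, where mouse 2 was lowest, as it was for 9 of the 10 polarization genes in its group. After ICH 0 of 6 tested differed between genotypes in edgeR, and 1 had an unadjusted p under 0.05, beside 12.2% of all genes.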
